A study of Mus musculus with 24 samples.

Results

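This report covers 37 genes of the cell division cycle among the 54446 genes that were counted in the brains of mouse embryos with and without the transcription factor gene Tfap2b. They were chosen by name and known function, with earlier results of these data known: 17 genes act at entry into or during S phase, when DNA is copied, and 20 act in G2 phase and mitosis, when chromosomes are separated. Every one of them was detected in every library, with at least 134 counts, and passed the filter on low counts in every comparison. The embryos were taken at E14.5, in mid-gestation, from matings of heterozygous parents. Tfap2b-/- mutants carried a neomycin cassette under the PGK promoter in an exon of Tfap2b in every cell of the body, and their Tfap2b+/+ littermates served as controls. Each brain was cut into the secondary prosencephalon (SP), which forms the telencephalon and hypothalamus, and a piece with diencephalon, midbrain and hindbrain (DMH). Polyadenylated RNA of each piece was sequenced separately, so that 12 embryos, 3 per sex and genotype, gave 24 libraries, and no treatment was given.

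Dividing progenitors in the embryonic brain line the ventricles, and their daughters stop dividing as they become neurons. D-type cyclins with their kinases release the E2F factors from the retinoblastoma protein and so start the cycle. E2F factors then switch on cyclin E and the genes that load the MCM helicase and copy DNA, while genes for mitosis follow later under the MuvB complex with B-MYB and FOXM1. In resting cells the same DNA elements are bound by repressors, which makes the messenger RNAs of these genes a common measure of how much of a tissue is cycling. In bulk tissue, a smaller share of dividing cells and less RNA per dividing cell cannot be told apart.

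The 2 groups of genes carry different elements next to their starts, and 6 promoters are printed to show them. MuvB binds the cell cycle genes homology region (CHR), searched here as TTTGAA or its variant TTCGAA, which reads the same on both strands, and E2F sites were searched as TTTNGCGC or the variant TTTCCCGC. The CCAAT box was searched as well, and all were sought on both strands. Each RefSeq window (build GRCm38.p6) runs from 250 bases before the start to base 50 of the transcript, 5′ to 3′ on the gene's strand, with matches in capitals. Mki67 (chr7:135716330-135716629, minus strand) and Top2a (chr11:99024140-99024439, minus strand), a chromatin-coating protein of dividing cells and a topoisomerase that disentangles chromosomes, and Ccnb2 (chr9:70421505-70421804, minus strand), a mitotic cyclin, hold CHR elements without an E2F match. Cdk1 (chr10:69352863-69353162, minus strand), the kinase of mitosis, holds both. Mcm5 (chr8:75109259-75109558, plus strand) and Mcm6 (chr1:128359656-128359955, minus strand), 2 subunits of the helicase, hold E2F matches that overlap on opposite strands, and no CHR.
Mki67: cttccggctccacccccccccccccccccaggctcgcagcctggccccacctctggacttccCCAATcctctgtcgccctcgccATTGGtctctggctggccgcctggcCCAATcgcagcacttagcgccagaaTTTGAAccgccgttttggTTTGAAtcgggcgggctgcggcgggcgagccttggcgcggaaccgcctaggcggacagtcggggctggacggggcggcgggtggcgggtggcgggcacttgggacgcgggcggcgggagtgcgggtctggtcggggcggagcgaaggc
Top2a: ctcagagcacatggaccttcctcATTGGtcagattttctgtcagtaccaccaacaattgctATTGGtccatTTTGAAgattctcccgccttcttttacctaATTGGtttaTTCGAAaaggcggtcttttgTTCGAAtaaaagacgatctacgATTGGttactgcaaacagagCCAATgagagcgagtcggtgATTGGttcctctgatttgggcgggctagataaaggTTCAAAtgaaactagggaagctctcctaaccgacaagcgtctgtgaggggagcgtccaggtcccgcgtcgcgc
Ccnb2: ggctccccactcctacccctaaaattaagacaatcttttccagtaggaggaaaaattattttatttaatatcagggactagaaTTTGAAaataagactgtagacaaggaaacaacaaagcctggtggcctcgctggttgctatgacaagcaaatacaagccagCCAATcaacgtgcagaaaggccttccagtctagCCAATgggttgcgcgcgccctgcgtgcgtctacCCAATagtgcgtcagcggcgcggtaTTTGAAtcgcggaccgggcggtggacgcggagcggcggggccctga
Cdk1: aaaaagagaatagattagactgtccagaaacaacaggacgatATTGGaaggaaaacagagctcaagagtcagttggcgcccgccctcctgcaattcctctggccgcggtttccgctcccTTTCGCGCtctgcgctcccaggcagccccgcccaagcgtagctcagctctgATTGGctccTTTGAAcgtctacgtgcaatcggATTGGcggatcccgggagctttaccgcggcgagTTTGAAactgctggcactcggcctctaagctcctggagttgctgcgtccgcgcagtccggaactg
Mcm5: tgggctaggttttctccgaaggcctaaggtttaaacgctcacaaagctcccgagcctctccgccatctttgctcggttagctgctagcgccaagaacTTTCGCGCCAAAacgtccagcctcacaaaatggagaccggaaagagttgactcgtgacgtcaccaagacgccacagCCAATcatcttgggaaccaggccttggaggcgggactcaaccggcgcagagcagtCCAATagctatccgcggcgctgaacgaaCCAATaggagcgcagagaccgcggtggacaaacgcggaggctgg
Mcm6: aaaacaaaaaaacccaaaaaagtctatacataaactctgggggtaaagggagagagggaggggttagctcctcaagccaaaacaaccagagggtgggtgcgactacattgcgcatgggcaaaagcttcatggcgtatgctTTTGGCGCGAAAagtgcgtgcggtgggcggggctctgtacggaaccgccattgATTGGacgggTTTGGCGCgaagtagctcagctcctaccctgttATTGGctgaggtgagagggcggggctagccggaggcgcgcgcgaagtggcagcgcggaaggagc
RefSeq windows were at hand for 29 of the 37 genes and 27025 genes in all. A CHR or its variant lay in 14 of 17 mitosis windows (82.4%) and in 2 of 12 S phase windows (16.7%), beside 21.7% of all genes. An E2F match or its variant lay in 5 of 12 S phase windows (41.7%) and, in Cdk1 alone, in 1 of 17 mitosis windows (5.88%), beside 2.74% of all genes. CCAAT boxes lay in 16 of 17 mitosis windows (94.1%), in 7 of 12 S phase windows (58.3%) and in 41.1% of all genes. A match of letters is a description of the window and no evidence of binding. Mcm4, Ccne2, Gins2, Ccnd1, Ccnd2, Aurkb, Ccna2 and Tpx2 were not included.

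The libraries held 24.7 to 66.8 M fragments on genes. Tfap2b itself lay between 281 and 435 CPM (gene counts scaled by the size of the library) in the DMH of the 6 controls and between 50.4 and 56.6 CPM in that of the mutants, with transcripts left in every mutant, while SP held 2.75 to 4.72 CPM in either genotype. Markers of the pieces matched their labels: 8 telencephalon genes summed to 1436 to 1990 CPM in SP and 137 to 339 CPM in DMH, and 8 midbrain and hindbrain genes to 5.87 to 18.7 and 302 to 717 CPM. The latter 8 include Tfap2b itself, and their sum in DMH was 553 to 717 CPM in controls and 302 to 388 CPM in mutants. Female control 2 carried Y-linked transcripts in both of its libraries (122 and 133 CPM over 4 genes, 125 to 194 CPM in males and at most 0.0351 CPM in the other females), and its label was kept. Female mutant 3, left out by the study after a principal component analysis, held 785 CPM of skeletal muscle and 1918 CPM of cartilage transcripts in its DMH piece, where the other DMH pieces reached 9.06 and 92.3 CPM. It is shown with the levels and left out of the tests. In the SP of male mutant 1, 9.98% of fragments were unmapped and 7.85% mapped to several places, against at most 7.05% and 5.81% elsewhere. That library was the highest of the 6 SP mutants for 7 of the 37 genes and the lowest for 20, and those 7 had longer exons (median 7901 bases) than those 20 (median 4045 bases). Mki67, at 789 CPM in it and 366 to 547 CPM in the other 5, and Cenpf, at 284 and 140 to 200.3 CPM, were among the 7. Finally, 4 of the 12 DMH pieces held almost no transcripts of 15 Hox genes that mark the caudal hindbrain and spinal cord, as described further on.

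The first comparison asked how cell cycle transcripts differ between the 2 pieces of the same brains. The fit held sex and region, and did not tie the 2 pieces of an embryo to each other. In controls, 36 of the 37 genes were lower in DMH, all 20 mitosis genes and 16 of the 17 S phase genes. Mitosis genes differed by a median of -1.80 on the log2 scale and S phase genes by -1.38, beside -0.00 over all 17196 genes tested. Regional differences were common, with 67.9% of all genes called, 34% lower and 33.8% higher in DMH, at an adjusted p under 0.05 (edgeR quasi-likelihood test with Benjamini-Hochberg adjustment). The gene that did not follow was Ccnd1, the cyclin D that growth signals induce.

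**Figure D1:**
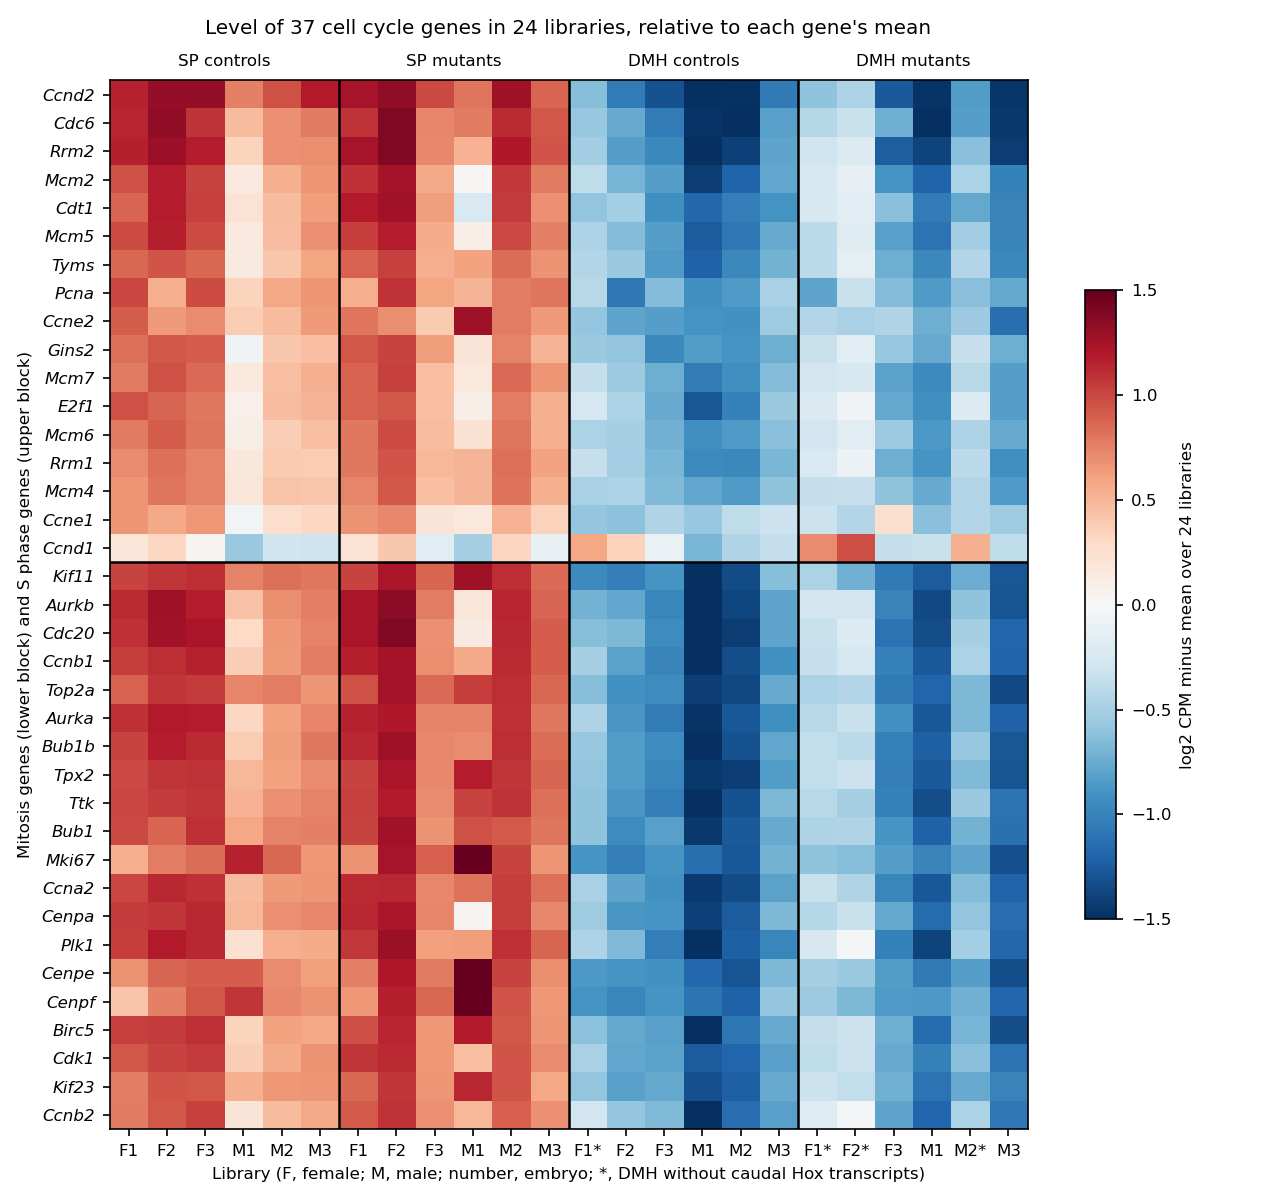
Level of each of the 37 genes (rows; S phase genes above, mitosis genes below) in each of the 24 libraries (columns), as log2 CPM minus the gene's mean over all libraries, on a colour scale that is capped at both ends. The 12 SP libraries are above the mean and the 12 DMH libraries below it for nearly every gene, and Ccnd1 is the row that does not split by region.

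Among the mitosis genes, Mki67 ranged from 338 CPM over a median of 404 to 515 CPM in the SP of the 6 controls, and from 95.9 over 119 to 142 CPM in their DMH. No DMH piece came near the lowest SP piece, and the difference was -1.80 ± 0.11 (log2 fold change ± SE, adjusted p = 2.88e-08, edgeR quasi-likelihood). Top2a ranged from 454 over 511 to 603 CPM in SP and from 108 over 152 to 185 CPM in DMH, a difference of -1.86 ± 0.11 (adjusted p = 8.1e-09). Cdk1 ranged from 59.4 over 80.3 to 94.8 CPM in SP and from 19.3 over 26.1 to 32.6 CPM in DMH (-1.66 ± 0.08, adjusted p = 8.05e-10). Ccnb1, cyclin B1, which switches Cdk1 on, ranged from 82.1 over 119 to 141 CPM in SP and from 19.7 over 32.9 to 44.9 CPM in DMH (-1.87 ± 0.13, adjusted p = 9.27e-08). For all of these genes the 2 groups of 6 libraries stood wholly apart. Kif23, a motor that builds the midzone of the dividing cell, had the smallest p of the list with -1.66 ± 0.08 (adjusted p = 7.63e-10), from 54.3 to 72.0 CPM in SP and from 15.1 to 24.9 CPM in DMH. Cenpe, a kinetochore motor, differed by -1.75 ± 0.10 (adjusted p = 5.16e-09), with 94.7 to 117 CPM in SP and 25.3 to 38.8 CPM in DMH.

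The mitosis genes varied little among themselves, whatever their role. The span ran from -1.49 for Ccnb2 to -1.97 for Kif11, the motor that separates the spindle poles. The kinases Aurka, Aurkb and Plk1 differed by -1.85, -1.93 and -1.76, and the checkpoint kinases Bub1, Bub1b and Ttk by -1.80, -1.84 and -1.82. The centromere proteins Cenpa and Cenpf had -1.78 and -1.71. Cdc20, the activator of the anaphase-promoting complex, had -1.88, the spindle factor Tpx2 -1.83, the chromosomal passenger Birc5 -1.71 and cyclin A2 (Ccna2) -1.79.

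The S phase genes spread further apart. Pcna, the clamp that holds the polymerase on DNA, ranged from 132 over 161 to 210 CPM in SP and from 49.8 over 62.4 to 78.5 CPM in DMH (-1.42 ± 0.14, adjusted p = 2.65e-06, edgeR quasi-likelihood). Mcm2 ranged from 94.9 to 194 CPM in SP and from 32.0 to 66.0 CPM in DMH (-1.63 ± 0.13, adjusted p = 3.23e-07). E2f1, which drives the genes of S phase entry, ranged from 18.3 over 27.5 to 33.8 CPM in SP and from 7.14 over 11.0 to 14.6 CPM in DMH (-1.33 ± 0.12, adjusted p = 4.48e-07). In each of these genes, too, the highest DMH library lay below the lowest SP library. The smallest p-values were those of Mcm4 (93.5 to 144 against 45.7 to 60.1 CPM, -1.19 ± 0.06, adjusted p = 8.16e-10), Rrm1 (200.2 to 316 against 90.6 to 140.3 CPM, -1.24 ± 0.07, adjusted p = 1.37e-09) and Cdt1 (medians of 27.7 and 8.74 CPM, -1.60 ± 0.10, adjusted p = 2.14e-09). Rrm1 is the large subunit of the reductase that makes deoxynucleotides, and its partner Rrm2, which is made mainly in S phase, differed by -1.91. Cdt1 and Cdc6 (-1.94) load the helicase before replication. The helicase subunits themselves ran from -1.19 for Mcm4 over -1.26 for Mcm6, -1.34 for Mcm7 and -1.58 for Mcm5 to Mcm2, Gins2 of the active helicase stood at -1.35 and thymidylate synthase (Tyms) at -1.43.

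Of the 2 E cyclins, which take cells into S phase with Cdk2, Ccne2 differed by -1.38. Ccne1 differed least among the genes called, with 9.66 over 13.5 to 15.7 CPM in SP and 6.50 over 6.99 to 7.96 CPM in DMH (-0.90 ± 0.11, adjusted p = 2.48e-06). The D cyclins lay at opposite ends. Ccnd2 ranged from 1529 over 2035 to 2255 CPM in SP and from 301 over 400 to 578 CPM in DMH, the largest difference of all 37 genes at -2.30 ± 0.13 (adjusted p = 1.01e-08). Ccnd1 ranged from 89.6 over 121 to 163 CPM in SP and from 81.8 over 113 to 198 CPM in DMH, so that the groups overlapped throughout (-0.00 ± 0.11, adjusted p = 0.995). Per transcript length, as FPKM, Ccnd2 stood 6.52 to 9.66 times above Ccnd1 in the 12 SP libraries and 1.28 to 2.10 times above it in the 12 DMH libraries, with no overlap.

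**Figure D2:**
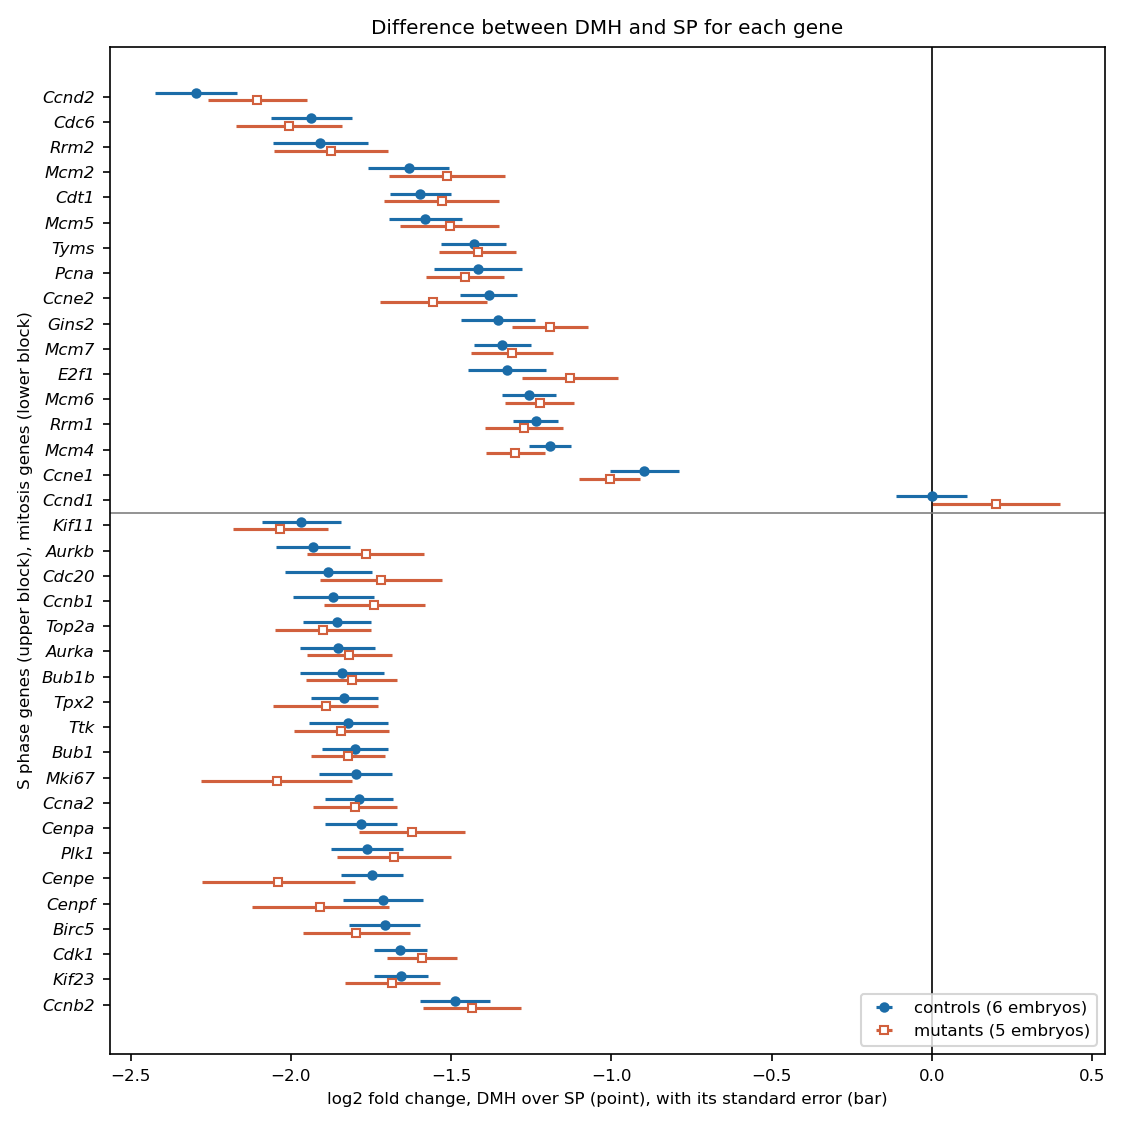
Log2 fold change of DMH over SP for each of the 37 genes, with its standard error as a bar, in controls (filled points, 6 embryos) and mutants (open squares, 5 embryos). All points but those of Ccnd1 lie at or below -0.90, mitosis genes between -2.04 and -1.43, and Ccnd2 is the lowest in either genotype.

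In levels per length, Ccnd2 led the 37 genes in both pieces, with 210 ± 30.3 FPKM (mean ± SD, n = 6 controls) in SP and 43.2 ± 10.7 FPKM in DMH. Rrm2 (72.4 ± 17.8 FPKM), Pcna (71.0 ± 12.9 FPKM) and Top2a (58.3 ± 7.02 FPKM) followed in SP. In DMH, Ccnd1 came next with 27.3 ± 9.60 FPKM, which was place 17 in SP at a like level of 26.6 ± 6.07 FPKM, followed by Pcna with 26.6 ± 4.73 FPKM. The lowest were Gins2 in SP (3.83 ± 0.936 FPKM) and Cdc6 in DMH (1.27 ± 0.340 FPKM). Most of this order is not resolved: the values of the 6 controls overlapped for 35 of the 36 pairs of neighbours in SP, the exception being Ccnd2 and Rrm2, and for all 36 pairs in DMH.

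The 2 pieces of one embryo were also set against each other directly. In each of the 12 embryos, DMH was lower than SP for the same 35 genes, with Ccnd2 at 16.2 to 28.8% of its SP level (median 20.8%) and Kif11 at a median of 25.3%. Ccne1 was lower in 11 embryos, at 42.1 to 104% of SP, the exception being female mutant 3. Ccnd1 was lower in 6 of 12, at 82.8 to 147%. Over the genes of each group, the median DMH level of an embryo was 22.9 to 36.7% of SP for mitosis genes and 32.6 to 44.0% for S phase genes, and the former was the lower value in all 12 embryos. Correspondingly, the mean log2 CPM of the mitosis genes exceeded that of the S phase genes by 0.04 to 0.51 in the 12 SP libraries (at most 0.32 without the SP library of male mutant 1) and lay 0.13 to 0.36 below it in the 12 DMH libraries.

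**Figure D3:**
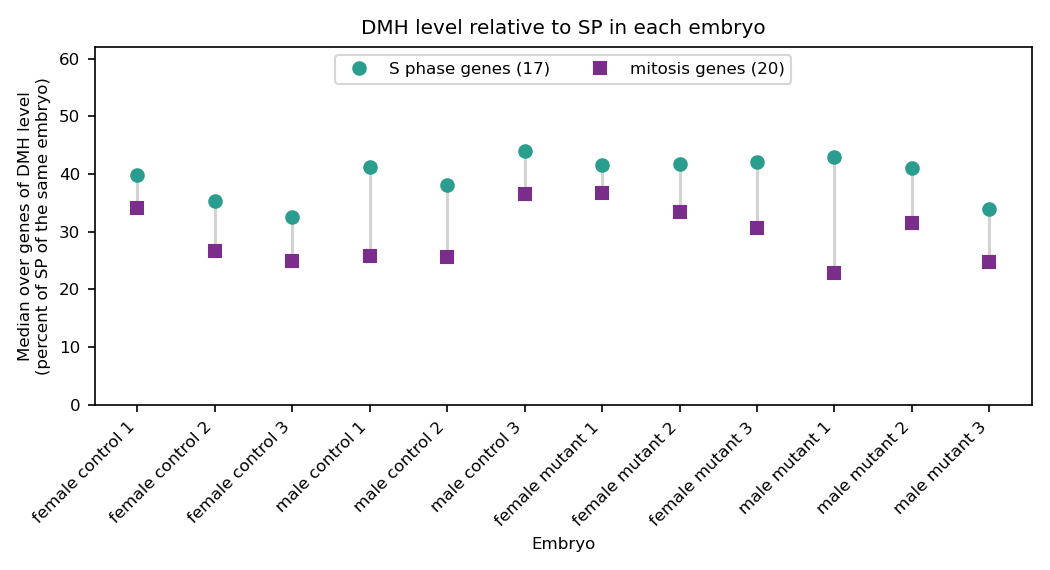
Median over genes of the DMH level, in percent of the SP level of the same embryo, for the 17 S phase genes (circles) and the 20 mitosis genes (squares) in each of the 12 embryos. The squares lie between 22.9 and 36.7% and below the circle of the same embryo in every case.

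Genes of the cycle outside the 37 were lower in DMH in the same way. All 24 other S phase genes were called lower (median -1.58), among them Gins1 (-1.31), the checkpoint kinase Chek1 (-1.59) and the chromatin remodeller Hells (-1.66), as were all 34 other mitosis genes (median -1.79), with Kif15 and Kif20a at -1.79 and the condensin subunit Smc4 at -1.59. Of 24 regulators of the cycle, 20 were lower and 1 was higher (median -1.02). Mycn, the Myc factor of neural progenitors, differed by -1.20 ± 0.04, E2f8 by -1.82 and E2f3 by -1.04, while Myc stood 0.21 higher (adjusted p = 0.0265, edgeR quasi-likelihood), and Ccnd3, Rb1 and Rbl2 were not called. The 10 tested genes of inhibitors and cell cycle exit were divided. Cdkn1c (1.01), Cdkn1a (0.66) and Prox1 (0.66) were higher in DMH, and 6 were lower, among them Cdkn2c (-2.22), an inhibitor of the D-cyclin kinases, Cdkn1b (-1.02) and Gadd45g (-1.05).

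Markers of cell types moved with these differences. Of 12 neural progenitor genes 10 were lower in DMH and 2, Slc1a3 (0.43) and Fabp7 (0.19), were higher (median -0.69; their sum was 2320 to 3104 CPM in SP and 1749 to 2462 CPM in DMH), and 8 of 9 intermediate progenitor genes were lower (median -0.99, sums of 670 to 897 and 166 to 444 CPM). Of 14 genes of postmitotic neurons 13 were higher (median 0.75, sums of 7263 to 9840 and 11653 to 12963 CPM). Sums of meningeal and mesenchymal genes were 170 to 740 CPM in SP and 745 to 3317 CPM in DMH, the latter 745 to 1250 CPM without female mutant 3, and those of endothelial genes 168 to 281 and 271 to 314 CPM. The part of these cell types in the differences of the 37 genes was not tested.

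The same comparison was made within mutants, in 5 embryos. Again 36 of the 37 genes were lower in DMH, beside 24.8% of all genes tested (24.1% higher, 48.9% in either direction), with medians of -1.81 for mitosis genes and -1.42 for S phase genes and -0.01 over all genes. Over the 6 mutant embryos, Mki67 ranged from 366 over 450 to 789 CPM in SP and from 92.9 over 132 to 152 CPM in DMH, and in the 5 tested differed by -2.04 ± 0.23 (adjusted p = 2.88e-05, edgeR quasi-likelihood). Bub1 had the smallest p of the mitosis genes, with 60.6 over 72.7 to 90.7 CPM in SP and 16.4 to 27.7 CPM in DMH (-1.82 ± 0.12, adjusted p = 3.52e-07). Ccnd2 ranged from 1577 over 1962 to 2276 CPM in SP and from 324 over 442 to 656 CPM in DMH (-2.10 ± 0.15, adjusted p = 9.08e-07). In these genes the SP and DMH libraries did not overlap. Of the other mitosis genes followed here, Cdk1 (-1.59 ± 0.11), Ccna2 (-1.80 ± 0.13), Top2a (-1.90 ± 0.15) and Ccnb1 (-1.74 ± 0.16) were lower. So were the S phase genes Mcm4 (-1.30 ± 0.09), Pcna (-1.46 ± 0.12), Mcm2 (-1.51 ± 0.18), E2f1 (-1.13 ± 0.15), Ccne1 (-1.01 ± 0.09) and Cdc6 (medians of 26.7 and 7.71 CPM, adjusted p = 2.24e-06). Ccnd1 ranged from 93.2 over 138 to 175 CPM in SP and from 101 over 147 to 257 CPM in DMH (0.20 ± 0.20, adjusted p = 0.428). Of the 5 mutants tested, 3 had DMH pieces without caudal Hox transcripts, and the difference of Ccnd1 was -0.15 ± 0.17 in the other 2 (adjusted p = 0.560, edgeR quasi-likelihood). Among the other lists, 24 of 24 S phase genes were lower (median -1.68, with Cdc45 at -2.04 and Atad2 at -1.98), as were 33 of 34 mitosis genes (median -1.81) and 20 of 24 regulators, and of 10 inhibitors and exit genes 3 were higher and 5 lower.

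Counted without a model, every DMH library lay below every SP library for 36 genes in controls (22% of all genes with a mean of at least 1 CPM did so) for 34 genes in mutants, female mutant 3 included (16.4% of all genes), and for 34 genes over all 24 libraries (13.1% of all genes). The exceptions in mutants and over all libraries were Ccnd1, Ccne1 and Cdt1.

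Whether the regional difference itself depended on Tfap2b was tested as an interaction of region and genotype. No gene of the 37 was called (edgeR quasi-likelihood, adjusted p of at least 0.999 for each, with none at an unadjusted p under 0.05 and none called by DESeq2), and 0.00565% of all genes were. The differences between mutants and controls ran from -0.28 ± 0.24 for Cenpe to 0.21 ± 0.19 for Ccnd2, with medians of -0.01 over mitosis genes and 0.04 over S phase genes. The 95% confidence intervals of the single genes lay between -0.76 and 0.64 on the log2 scale. The range of the differences turned on single embryos. Without male mutant 1 it was -0.11 to 0.28, and 14 of the 37 signs changed. The lowest value was -0.44 without female mutant 1, and the highest was 0.33 without female control 1.

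The study's own question was how the loss of Tfap2b changes transcripts within a piece and sex. None of the 37 genes was called in any of these 4 comparisons by the study's thresholds, which ask for a log2 fold change beyond 0.5 in either direction at an adjusted p under 0.2 (edgeR quasi-likelihood). These called 0.0181% of all genes in SP of females, 0.00596% in DMH of females, 0% in SP of males and 0.0236% in DMH of males. Tfap2b was among the genes called in DMH of either sex. At these thresholds the paper reports far more genes in female DMH from its own analysis, and the cause of the difference was not tested. In female SP, levels in the 2 mutants and 3 controls differed by medians of 0.09 over mitosis genes and 0.06 over S phase genes. One gene, Cdt1 (0.20 ± 0.08), had an unadjusted p under 0.05, and none was called by DESeq2. That count was 0 without control 1 or mutant 2, 6 without control 2 and 12 without mutant 1. Both mutants lay above all controls for 5 genes (Ccnb1, Ccne1, Cdk1, Cdt1 and Gins2), beside 7.83% of all genes, and with female mutant 3 included for none, beside 2.97%. Values for the genes followed throughout ran from -0.03 ± 0.24 for Pcna to 0.26 ± 0.20 for Mki67. With female mutant 3 included, 6 of the 37 fold changes were above 0 in place of 35, and the medians were -0.05 and -0.07. Without female mutant 2, 19 were above 0, with medians of -0.01 and 0.02.

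In male SP, all 37 fold changes were above 0, with medians of 0.30 over mitosis genes and 0.22 over S phase genes and -0.03 over all genes. An unadjusted p under 0.05 was reached by 8 genes (605 of 16562 over all genes), the lowest adjusted p was 0.967 (edgeR quasi-likelihood), and DESeq2 called none. Tpx2 had 150, 161 and 173 CPM in the controls and 240, 224 and 194 CPM in the mutants (0.45 ± 0.12). Top2a had 478, 489 and 454 CPM in the controls and 590, 619 and 524 CPM in the mutants (0.29 ± 0.10). Rrm1 had 200.2, 234 and 232 CPM in the controls and 252, 316 and 269 CPM in the mutants (0.33 ± 0.12). For these genes every mutant lay above every control, which held for 13 of the 37 genes beside 6.02% of all genes. The count of genes with an unadjusted p under 0.05 was 1 without control 1 or mutant 2, 3 without control 2, 13 without mutant 3 and 27 without mutant 1, and none was called in these fits. Markers of some cell types had mostly positive fold changes here as well. This held for 11 of 12 neural progenitor genes (median 0.16), 8 of 9 intermediate progenitor genes (median 0.11) and 7 of 8 telencephalon genes (median 0.28). Genes of postmitotic neurons were positive in 11 of 14 (median 0.05). Fewer were positive among erythroid (4 of 10), meningeal (4 of 10), microglia (2 of 7), endothelial (1 of 7) and cartilage genes (0 of 3 tested). None of these genes was called. With both sexes in one fit, none was called either (lowest adjusted p = 0.901, edgeR quasi-likelihood; none by DESeq2), all 37 fold changes were above 0, and 19 genes had an unadjusted p under 0.05 (861 of 16973 over all genes). It was 5 genes without male control 1, 8 without female control 1, male control 2 or male mutant 2, 10 without female mutant 2 and 12 without male control 3. Medians in the fit of both sexes were 0.22 and 0.19, and 0.15 and 0.10 with female mutant 3 included, when no gene had an unadjusted p under 0.05.

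**Figure D4:**
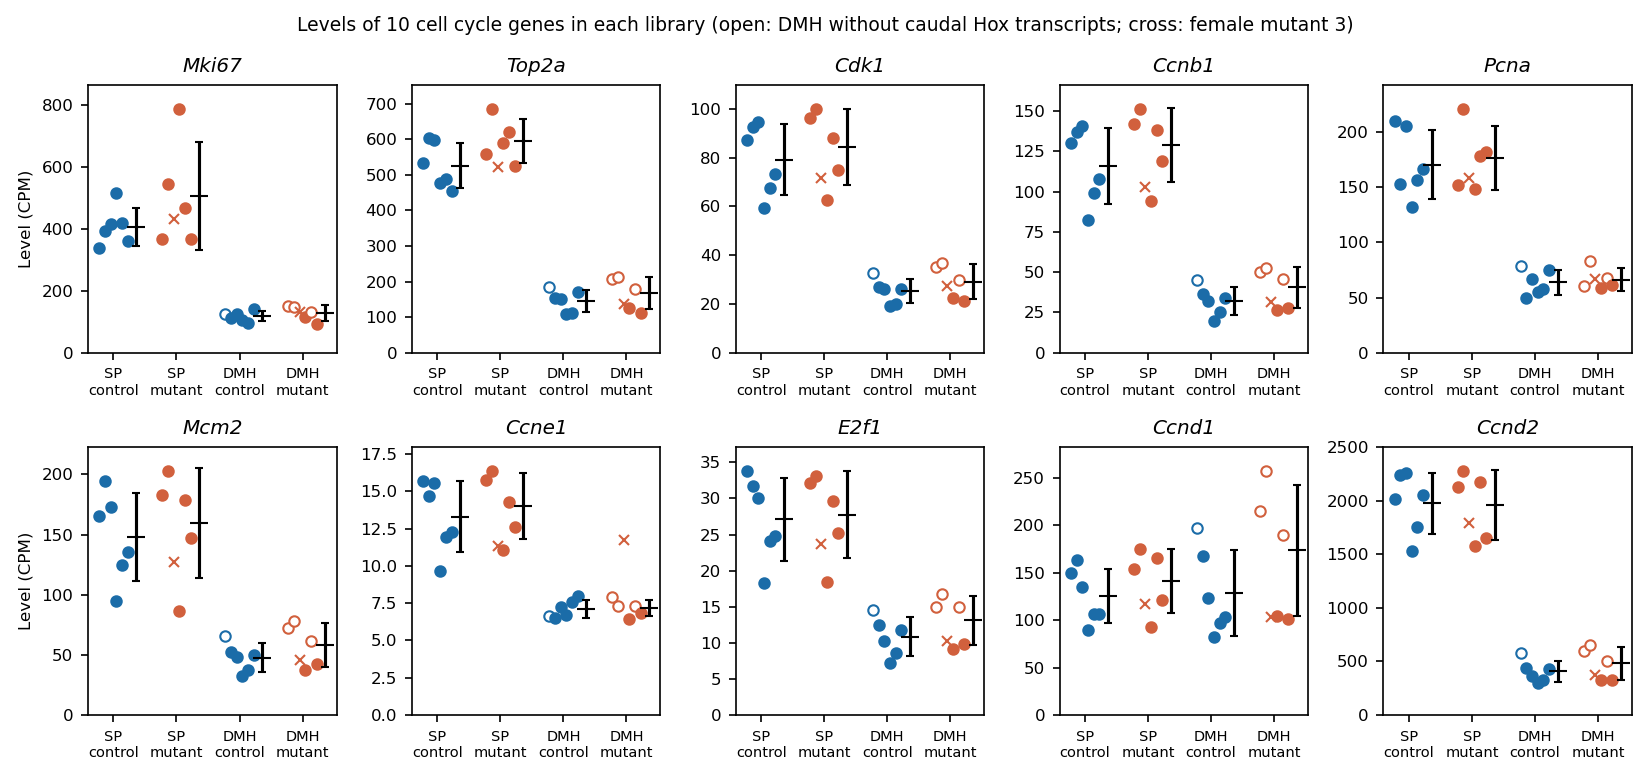
Level in CPM of 10 of the genes in each library, by piece and genotype, with open symbols for DMH pieces without caudal Hox transcripts a cross for female mutant 3, and black bars for the mean ± SD without that embryo. SP and DMH separate for all genes shown but Ccnd1 and, through female mutant 3, Ccne1, and the open symbols are the highest DMH values of Ccnd1 (190 to 257 CPM) and Ccnd2 (506 to 656 CPM).

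In female DMH, the 37 fold changes were likewise all above 0, with medians of 0.39 over mitosis genes and 0.36 over S phase genes. An unadjusted p under 0.05 was reached by 35 genes, against 1492 of 16773 over all genes, with a lowest adjusted p of 0.551 (edgeR quasi-likelihood). It was 22 genes without control 2, 13 without mutant 2 and 4 with female mutant 3 included, when the medians were 0.25 and 0.24. Aurkb had at most 18.1 CPM in the controls, 24.4 and 24.5 CPM in mutants 1 and 2 (0.55 ± 0.10) and 14.8 CPM in female mutant 3. Cenpe had 34.1, 33.6 and 33.0 CPM in the controls and 43.9 and 42.2 CPM in mutants 1 and 2 (0.37 ± 0.07), and Rrm2 73.2, 59.1 and 53.6 CPM against 85.6 and 91.4 CPM (0.52 ± 0.13). Both mutants lay above all 3 controls for 36 genes, all but Pcna (78.5, 49.8 and 66.8 CPM in controls, 60.4 and 83.3 CPM in mutants), beside 12.6% of all genes. With female mutant 3 included this held for 5 genes (Ccne1, Ccne2, Cenpe, Cenpf and Mki67), beside 2.25%. Fold changes were also positive for 8 of 9 intermediate progenitor genes (median 0.40), 7 of 8 telencephalon genes (median 0.38) and 10 of 12 neural progenitor genes (median 0.22), with none called, and the part of these cell types in the genotype comparisons was not tested. Among other markers, 10 of 10 erythroid and 5 of 7 microglia genes were positive. So were 4 of 14 postmitotic neuron, 3 of 10 meningeal, 2 of 7 endothelial and 1 of 3 tested cartilage genes. The 2 mutants tested both lacked caudal Hox transcripts, as did control 1 but not controls 2 and 3. DESeq2 called 3 genes, Rrm2, Aurkb and Plk1. Without control 1 edgeR called 17, and in that fit genotype and Hox content cannot be told apart. The shares of all genes called by DESeq2 and in that fit are not given here.

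In male DMH, 29 of the 37 fold changes were above 0 (medians 0.11 and 0.11), and no gene had an unadjusted p under 0.05 by edgeR or was called by DESeq2. The furthest was Ccnd1 at 0.46 ± 0.26, followed by Ccnb1 at 0.30 ± 0.28, and Mki67 had -0.04 ± 0.19. No gene separated mutants from controls here, where 7.67% of all genes were higher in every mutant. Without male mutant 2, the male that lacked caudal Hox transcripts, 4 fold changes were above 0 and the medians were -0.10 and -0.06, and without male control 3 it was 36 with medians of 0.34 and 0.24. All 9 intermediate progenitor genes (median 0.33) and 10 of 12 neural progenitor genes (median 0.14) had positive fold changes, with none called. Fold changes were negative for 5 of 7 tested telencephalon genes (median -0.32) and 9 of 14 genes of postmitotic neurons (median -0.04), again with none called.

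The DMH pieces also differed in their Hox content. The 15 Hox genes of groups 4 to 8 summed to 0.105 to 0.405 CPM in female control 1, female mutants 1 and 2 and male mutant 2, and to 241 to 451 CPM in the other 8. SP libraries held at most 0.341 CPM. These 4 pieces were compared with the 7 others tested, with sex and genotype in the model, and 3 of the 4 were mutants.

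All 37 genes had fold changes above 0 in the pieces without caudal Hox transcripts, with medians of 0.48 over mitosis genes and 0.41 over S phase genes and -0.00 over all genes. Of these, 8 were called higher at an adjusted p under 0.05 (edgeR quasi-likelihood), beside 3.98% of all genes (4.86% lower, 8.85% in either direction), and 30 had an unadjusted p under 0.05 (4849 of 17555 over all genes). The 8 were 4 mitosis genes (Aurka, Cdk1, Plk1 and Ccnb2) and 4 S phase genes (Rrm1, Mcm7, Ccnd1 and Ccnd2). Aurka, which matures the spindle poles, ranged from 14.7 CPM in male mutant 2 to 18.6 CPM in female mutant 2 among these 4 pieces (median 17.3 CPM), and ranged from 8.49 over 10.7 to 12.8 CPM in the other 8. All 4 pieces were above all 8, and the difference was 0.55 ± 0.12 (adjusted p = 0.0169). Cdk1 had 32.6 CPM in female control 1, 35.3 and 36.8 CPM in female mutants 1 and 2, 29.6 CPM in male mutant 2 and 19.3 over 24.3 to 27.3 CPM in the others (0.38 ± 0.10, adjusted p = 0.0317). Plk1, the kinase of mitotic entry, had 0.61 ± 0.16 (adjusted p = 0.0409), and Ccnb2 0.51 ± 0.14 (adjusted p = 0.044).

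Among the S phase genes, Rrm1 had 140.3, 151, 167 and 136 CPM in these 4 pieces, in the same order, and 90.6 over 101 to 125 CPM in the others (0.41 ± 0.09, adjusted p = 0.0197, edgeR quasi-likelihood). Ccnd1 had 198, 215, 257 and 190 CPM and 81.8 over 103 to 168 CPM (0.66 ± 0.14, adjusted p = 0.0237). Ccnd2 had 578, 593, 656 and 506 CPM and 301 over 347 to 436 CPM (0.61 ± 0.13, adjusted p = 0.0278). The D cyclins, which took opposite ends between the regions, differed by 0.66 and 0.61 here, and the groups did not overlap in any of the 3 genes. Mcm7 had 0.38 ± 0.09 (adjusted p = 0.0274). Genes not called included Ccnb1 (0.58 ± 0.16), E2f1 (0.51 ± 0.15), Mcm2 (0.52 ± 0.14), Top2a (0.47 ± 0.17), Pcna (0.32 ± 0.17) and Mki67 (0.26 ± 0.17). Ccne1 had the smallest difference of all, 0.09 ± 0.12. Mki67 also overlapped, with 125, 152, 149 and 133 CPM against 92.9 over 115 to 142 CPM.

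Counted over libraries, all 4 pieces lay above all 8 others for 26 of the 37 genes, beside 12.4% of all genes, and for 27 beside 13.2% without female mutant 3. The pieces without caudal Hox transcripts were still below SP for most genes: for 35 of the 37 genes the highest of them lay below the lowest SP library, the exceptions being Ccnd1 and Cdt1. Their count of called genes turned on single libraries and settings. It fell to 0 without female control 3, male mutant 1 or male mutant 2 and to 1 without female control 1 or male mutant 3, rose to 14 without female control 2, 17 without male control 1 and 26 without male control 3, and was 23 with DESeq2. The shares of all genes called in these fits are not given here, and the share given above belongs to the main fit.

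A measure of library composition moved with Hox content. For each library, Spearman's rho was taken across 14407 genes between exon length and the deviation from the mean of the other libraries of its region. It was -0.267 to -0.159 in the 4 pieces without caudal Hox transcripts and -0.156 to 0.259 in the other 8, of which 7 were above 0. Across the 37 genes alone it was -0.265 to -0.127 and -0.320 to 0.313, so that these overlapped. Genes are not independent replicates, and the part of length in the differences was not tested.

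Other cycle genes stood beside these. Of the other S phase genes 3 of 24 were called higher (Rfc4, Mcm3 and Fen1, median of the list 0.29), of the other mitosis genes 4 of 34 (Nek2, Ccnf and Bub3 among them, median 0.38), and of the regulators 5 were higher and 2 lower. Wee1 (0.47 ± 0.10), Mybl2 (0.60 ± 0.15) and Tfdp2 (0.26 ± 0.07) were higher, and Rbl2 (-0.31 ± 0.08) and Myc (-0.33 ± 0.08) lower. One inhibitor, Cdkn1c (0.43 ± 0.07), was higher. Neural progenitor genes summed to 2208 to 2462 CPM in the 4 pieces and 1749 to 2173 CPM in the others, with 6 of 12 called higher and 1 lower. Intermediate progenitor genes summed to 381 to 444 against 166 to 326 CPM (5 of 9 higher), telencephalon genes to 264 to 339 against 137 to 323 CPM (2 of 8 higher), erythroid genes to 879 to 1682 against 791 to 1275 CPM (none called), and meningeal genes to 745 to 906 against 930 to 3317 CPM (1 of 10 lower). Without female mutant 3, which was not in the test, the last range was 930 to 1250 CPM. Genes of postmitotic neurons overlapped, with 11923 to 12563 against 11653 to 12963 CPM, and 1 of 14, Snap25, was lower (-0.39). Midbrain and hindbrain genes summed to 325 to 717 against 302 to 716 CPM, with En1 (0.54), En2 (0.59) and Pax7 (0.58) higher and Pax2 (-2.38) lower among the 8. These 8 include Tfap2b itself, and most of the pieces without caudal Hox transcripts were mutants. Over all DMH pieces the sum was 553 to 717 CPM in controls and 302 to 388 CPM in mutants. The part of these tissues in the differences of the 37 genes was not tested.

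**Figure D5:**
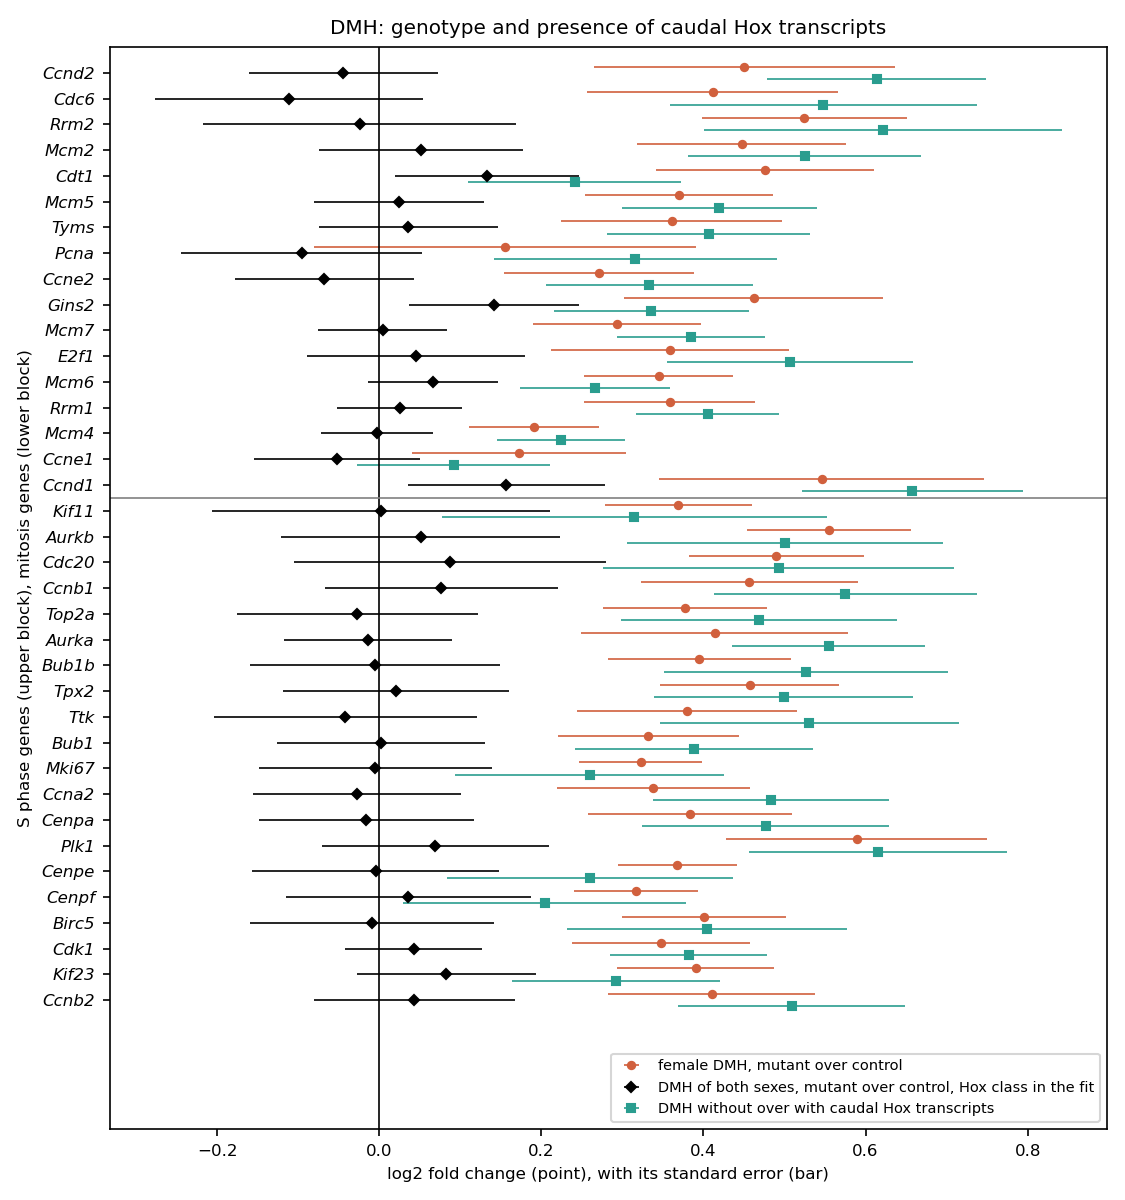
Log2 fold changes with standard errors in DMH for each of the 37 genes, for genotype in females (circles), for genotype in both sexes with Hox content in the model (diamonds), and for pieces without against with caudal Hox transcripts (squares). Points for genotype with Hox content in the model lie between -0.11 and 0.16, and points for Hox content between 0.09 and 0.66.

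In the same fit, with Hox content and sex held constant, mutants and controls were compared over 11 DMH libraries. None of the 37 genes was called (edgeR quasi-likelihood and DESeq2), none had an unadjusted p under 0.05 (412 of 17555 over all genes), and 0.0228% of all genes were called. Of the fold changes 21 were above 0 and 16 below, with medians of 0.00 over mitosis genes and 0.02 over S phase genes, beside the 0.39 and 0.36 of female DMH alone, which shares its libraries. These values turned on single libraries. Without female control 1, the only control that lacked caudal Hox transcripts, 4 were above 0 with medians of -0.09 and -0.05, and without male control 1 it was 10 with medians of -0.03 and -0.02. Without male control 3, 36 were above 0 with medians of 0.15 and 0.12, and 11 had an unadjusted p under 0.05. With all 11 libraries they ran from -0.11 ± 0.17 for Cdc6 to 0.16 ± 0.12 for Ccnd1, and the 95% confidence intervals of the single genes lay between -0.44 and 0.46.

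Female and male libraries were set beside each other as counts of separated genes, with no test of sex. In SP of controls, all 3 females lay above all 3 males for 31 of the 37 genes, beside 21.3% of all genes, and for 33 beside 25.7% without female control 2. The rho of exon length and deviation split the same libraries, with -0.343 to -0.221 in the females and 0.0426 to 0.338 in the males across 14407 genes, and -0.662 to -0.324 and -0.162 to 0.570 across the 37 genes, and its part in these counts was not tested. In SP of mutants, both tested females lay above all 3 males for 19 genes, beside 13.6%. In DMH of controls this held for 3 genes (Ccnb2, Ccnd1 and Cdk1), beside 19.2%, and in DMH of mutants, where both tested females lacked caudal Hox transcripts, for 35 genes, beside 19.5%. The count in DMH of controls includes female control 2 and was not made without it. Across 14407 genes the rho in DMH of mutants was -0.242 to -0.221 in the tested females and -0.159 to 0.259 in the males. It was -0.267 to 0.152 and 0.156 to 0.241 in DMH of controls, and -0.313 to -0.120 and -0.119 to 0.199 in SP of mutants. Across the 37 genes alone the sexes overlapped in each of these sets, and the part of length was not tested. Stage within the day, litter and dissection were not analysed here.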

How the data were processed

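RNA of the SP and DMH pieces of 12 embryos was sequenced as stranded, polyadenylated, paired-end libraries. The deposited files hold raw fragment counts per gene that the authors made by trimming with cutadapt 2.4 and alignment with STAR 2.6.1d to mm10 (GRCm38.p6), according to the submitters' processing notes. The column for the strand of this kit was used and 1 other stranded column was not. The first 4 lines name no gene and were left out: per library, 5.46 to 9.98% of fragments were unmapped, 4.96 to 7.85% mapped to several places, 4.68 to 7.46% fell outside genes and 1.10 to 1.62% were ambiguous. Symbols and exon lengths came from GENCODE (54409 of 54446 identifiers matched). CPM used TMM factors, FPKM divided them by exon length, and 3 counts, the floor, corresponded to 0.0455 to 0.123 CPM. Intervals cover counting error and spread between these samples only.

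Genes were tested by the robust quasi-likelihood test of edgeR 4.0.16, after TMM scaling and filterByExpr, with Benjamini-Hochberg adjustment over all genes. SE is the fold change divided by the root of F. Calls took an adjusted p under 0.05 for region, interaction and Hox content, and the study's thresholds for genotype. A DMH piece counted as without caudal Hox transcripts under a summed 100 CPM. DESeq2 1.42.0, other size factors, no filter, unstranded counts, the other call rule, blocks and each library left out were alternatives. Full values were drawn from 10 fixed genes and, per comparison, the 3 of each group with the smallest p, and some comparisons give only part of these. The members and lists were chosen with earlier results of these data known. SP and DMH of a number come from one embryo, and their deviations from group means correlated with r = 0.0922 to 0.547. Control and mutant of a number shared only the number (r = -0.210 to 0.589). No pair of replicates agreed within sampling noise (chi-square per gene of 9.62 or more). The scripts were tested on simulated data.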

Additional observations from a re-analysis of the deposited data

Results flagged for a closer look

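Ccne1 in the DMH of mutants was set apart by 1 library. Female mutant 3 had 11.8 CPM, the next highest of the 6 mutants had 7.94 CPM and the lowest 6.44 CPM, so that on the log2 scale the gap took 0.652 of the whole range, where 0.625 is the 95% critical value of Dixon's test for 6 values. It is the library with the skeletal muscle and cartilage transcripts, and their part in the value was not tested. Of 148 groups of 6 values examined this was the only one beyond the limit, where chance alone passes about 5% of groups.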

How the results depend on the processing

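The 36 genes called between the regions stayed 36 in number in controls and in mutants under every alternative run, libraries left out included. The counts that moved were those of female DMH and of Hox content. In female DMH, where edgeR called 0, the count was 4 without a filter on low counts, 3 with DESeq2, and 0 to 17 with 1 library left out. For Hox content, where 8 were called, it was 32 without a filter, 23 with DESeq2, 13 by the study's thresholds, 18 with the replicate block, 28 with female mutant 3 included, and 0 to 26 with 1 library left out. The cause of these shifts was not tested, and the shares of all genes called under these alternatives are not given here. A block for the embryo, which ties its SP and DMH, changed no call of the region comparisons or the interaction, and the replicate block by number changed no other count of called genes. Every gene had at least 134 counts in each library, and the genotype comparisons had 2 or 3 embryos a group. Embryos were separate, but 1 mutant line was used.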

Other observations

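Over all 24 libraries, Spearman's rho between exon length and a library's deviation from the mean of the other libraries of its region ran from -0.66 in the SP of female control 3 to 0.57 in that of male control 1 across the 37 genes, and from -0.34 to 0.34 across 14407 genes.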
